A study of Rattus norvegicus with 14 samples.

Results

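The comparison described here set peripheral blood mononuclear cells (PBMC) of rats with collagen-induced arthritis after 34 days of methotrexate plus mechanical stimulation (MTXMS_A, 3 arrays) against those of arthritic rats before any therapy (CIA_B, 2 arrays), by the sample titles, which makes 5 of the 14 arrays in all. The other arrays were from arthritic rats after 34 days of stimulation alone (MS_A, 3 arrays), healthy rats after 34 days of stimulation (NOCIAMS_A, 3 arrays) and healthy rats before therapy (NOCIA_B, 3 arrays). The rats were female Wistar animals, and arthritis was raised by injection of bovine type II collagen with adjuvant. Stimulation was puncture and twirling of a short needle at points of the lower back and hind leg, which the labels call acupuncture, and methotrexate was injected into the peritoneum once a week. Blood was drawn at sacrifice, so that each array came from another rat, and no group without stimulation was sampled at the later day: time, methotrexate and stimulation cannot be told apart in this comparison. All values are MAS5 signals, the linear brightness that the Affymetrix software computes for a probe set, the group of short probes for 1 transcript.

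Methotrexate is a folate antagonist that, as polyglutamates, inhibits enzymes of purine and thymidylate synthesis. At the low doses used in arthritis it is also known to raise extracellular adenosine, which acts on leukocytes through adenosine receptors. PBMC are the lymphocytes and monocytes of blood collected on a density gradient, and such preparations usually carry platelets and some red cells and granulocytes as well.

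The median signal of the 14 arrays ran from 104 to 149, with the same trimmed mean, 500, on each. Markers of T cells, cytotoxic cells, B cells, monocytes and platelets had signal on all arrays of both groups, though no detection calls were used. Red cell markers were low on MTXMS_A replicate 3, with a summed signal of 12520, against 109000 to 270400 on the other arrays of both groups. Among the arrays of both groups, MTXMS_A replicate 3 stood apart. Its mean correlation with the other arrays was 0.882, against 0.912 and 0.923 for MTXMS_A replicates 1 and 2 and 0.919 and 0.928 in CIA_B. Outside these groups, NOCIA_B replicate 3 was lower still, at 0.855. The ratio of 3′ to 5′ signal of the actin controls grows when RNA is degraded or poorly copied. It was 5.01 on MTXMS_A replicate 3, 3.15 and 3.13 on the other MTXMS_A arrays, and 2.83 and 2.77 in CIA_B. All MTXMS_A arrays were thus above both CIA_B arrays, and the part of RNA quality in the comparison was not tested. The NOCIAMS_A arrays had 4.36, 3.35 and 4.13. The main counts and list medians that moved with MTXMS_A replicate 3 are given with and without it.

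Across the 18515 probe sets tested, no difference between MTXMS_A and CIA_B passed limma at an adjusted p of 0.05; the smallest adjusted p was 0.901. At an unadjusted p under 0.05 there were 999 probe sets. Of these, 327 were more than 2-fold higher in MTXMS_A (1.77% of those tested) and 96 more than 2-fold lower (0.518%), the thresholds that the study's methods name. The arrays of both groups did not overlap for 1717 probe sets that were higher in MTXMS_A (9.27%) and for 2323 that were lower (12.5%). Without MTXMS_A replicate 3 the counts at the study's thresholds were 617 higher and 241 lower, without MTXMS_A replicate 2 there were 201 lower, and leaving out CIA_B replicate 1 gave 13 calls at the adjusted p, the most of any array left out. An exact permutation test over 3 and 2 arrays cannot go below 0.1. Every gene named below is therefore a description of these 5 arrays and not a called change. Limma's unadjusted p is given where a gene is described in full, and "without overlap" means that all MTXMS_A signals lay on one side of both CIA_B signals.

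**Figure D1:**
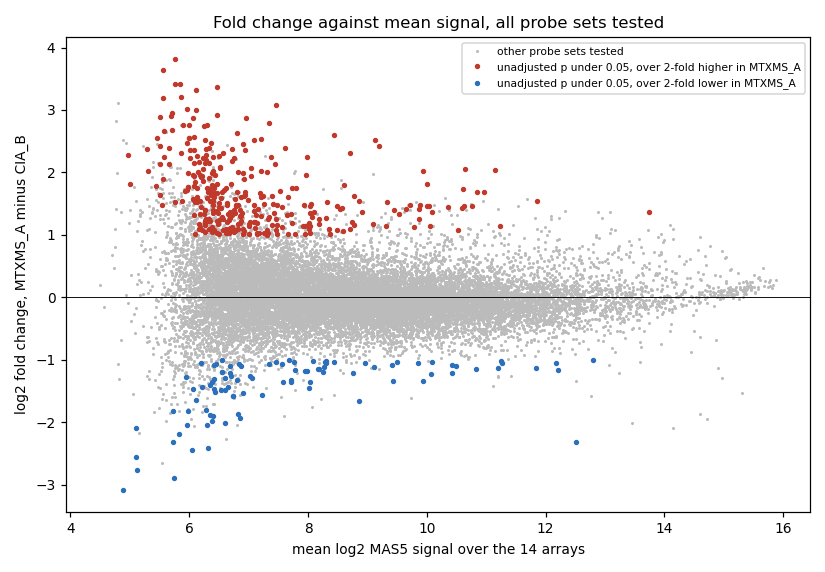
Log2 fold change of MTXMS_A minus CIA_B (vertical axis) against the mean log2 signal over the 14 arrays (horizontal axis) for the 18515 probe sets tested, with the 327 higher and 96 lower probe sets at the study's thresholds in colour. Most coloured points lie at low signal: 201 of the 327 higher and 48 of the 96 lower ones have a mean signal of at most 123.5.

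Among the 327 higher probe sets, 222 had both CIA_B signals below the median of their own array (67.9%, against 11.3% of all probe sets tested), and among the 96 lower ones, 41 had all MTXMS_A signals below it (42.7%, against 6.19%). The single genes named for this comparison were taken from brighter probe sets (in the higher group, an average past percentile 60).

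The clearest group among the lower genes was that of T cells and cytotoxic lymphocytes. Klrk1, the activating receptor NKG2D of NK cells and CD8 T cells, had signals of 259, 261 and 257 in MTXMS_A, against 687 and 528 in CIA_B. The MTXMS_A arrays lay within a few units of each other and far below both CIA_B arrays, with a log2 fold change of -1.22 ± 0.27 (SE; limma's unadjusted p = 0.00072). Cd8a, a chain of the CD8 coreceptor, is on 3 probe sets that all gave the same order. The one with the lowest p had 851, 679 and 656 in MTXMS_A and 1474 and 1515 in CIA_B (-1.05 ± 0.26), and the brightest had 5065, 5551 and 4707 in MTXMS_A and 8558 and 9497 in CIA_B (-0.82 ± 0.30). Cd3e, an invariant chain of the T cell receptor complex, had 1322, 950 and 642 in MTXMS_A, against 1960 and 2375 in CIA_B (-1.21 ± 0.36), and -0.57 ± 0.23 on its brighter probe set. Both Cd3e probe sets were without overlap. Tnfrsf25, the death receptor DR3 that costimulates T cells, had 591, 461 and 509 in MTXMS_A and 970 and 1170 in CIA_B (-1.04 ± 0.23).

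**Figure D2:**
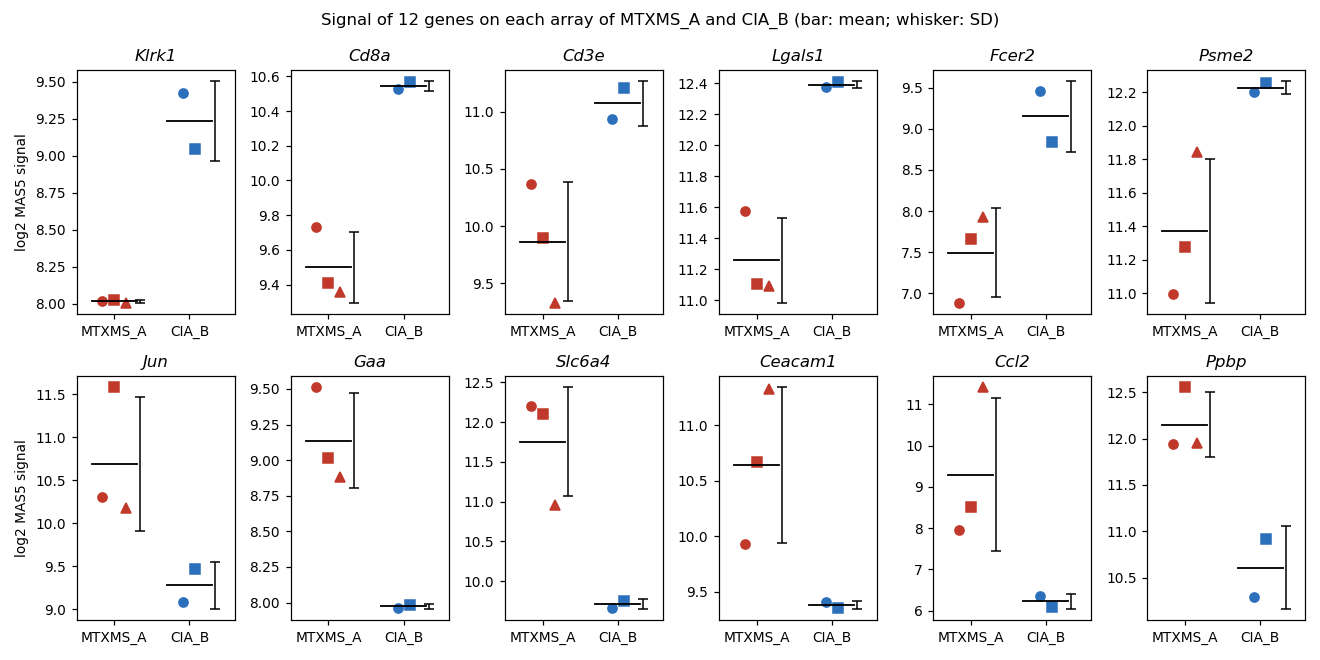
Log2 MAS5 signal (vertical axis) of 12 genes on the MTXMS_A arrays (red; circle, square and triangle for replicates 1, 2 and 3) and the CIA_B arrays (blue); the line is the mean and the whisker the SD, n = 3 and n = 2. The 6 genes in the top row were lower and the 6 in the bottom row higher in MTXMS_A, all without overlap.

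Over the list of T cell markers, 17 of 20 measured genes had a fold change below 0, and 9 were lower without overlap against 1 that was higher; over all 10112 genes, taken as 1 probe set each, these shares were 13.2% and 8.91%. None of the 20 was at the study's thresholds on its brightest probe set. The median log2 fold change was -0.41, against -0.02 over all genes. Cd2, an adhesion receptor of T and NK cells, had 3006, 2004 and 2848 in MTXMS_A and 5002 and 4308 in CIA_B (-0.85 ± 0.23). Trat1 (-0.92 ± 0.39), Lat (-0.66 ± 0.29) and Lck (-0.61 ± 0.26), parts of T cell receptor signalling, were lower without overlap too. The exception was Gata3, the transcription factor of T helper 2 cells, with 1412, 967 and 872 in MTXMS_A and 703 and 846 in CIA_B (0.46 ± 0.38). Zap70 and Cd247 overlapped between the groups. Cd4 had 208, 51.7 and 112 in MTXMS_A, against 60.6 and 20.1 in CIA_B and its probe set was dim. Without MTXMS_A replicate 3 the median of the list was -0.22, and 9 genes were lower without overlap, while over all genes 2484 of 10112 were, since fewer arrays overlap less.

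Genes of NK and cytotoxic cells gave a like picture. Of 24 measured, 18 were below 0, 10 were lower without overlap and none was higher without overlap (13.2% and 8.91% of all genes), with a median of -0.48 (-0.36 without MTXMS_A replicate 3). Gzmm, a granule protease, had 7246, 3144 and 4002 in MTXMS_A and 7375 and 9498 in CIA_B (-0.89 ± 0.35). The highest MTXMS_A value thus came close to the lower CIA_B value. Klre1, a lectin-like receptor of NK cells, had 710, 665 and 788 in MTXMS_A, against 1153 and 1288 in CIA_B (-0.76 ± 0.40). The perforin gene Prf1, with 5025, 4024 and 5397 in MTXMS_A and 6376 and 6754 in CIA_B (-0.46 ± 0.39), was also without overlap. Klrd1 (-0.69 ± 0.34), Fcgr3a (-0.64 ± 0.34), Klrc2 (-1.03 ± 0.59), Faslg (-0.55 ± 0.34), Gzmb (-0.76 ± 0.58) and Ncr1 (-0.77 ± 0.61) completed the 10 with Klrk1. Xcl1, a chemokine of activated cytotoxic cells, was dim and pointed the other way (2.27 ± 1.06, overlapping). In bulk samples such as these, fewer cells of a type and less RNA per cell cannot be told apart.

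Several of the lower genes make peptides for MHC class I molecules. Cells that meet interferon exchange 3 catalytic subunits of the proteasome for Psmb8, Psmb9 and Psmb10, and add the activator PA28 formed by Psme1 and Psme2. The transporter of Tap1 and Tap2 then carries the peptides into the endoplasmic reticulum. This set was put together after the values of the proteasome list had been seen. The promoters of Psmb10, Psme2 and Tap2, all lower without overlap, are shown because each holds the core of the interferon-stimulated response element, searched as GAAA, any 2 bases and GAAA again. The 250 bases before the start of transcription are given on the gene's strand (RefSeq, GRCr8), with the matches in capitals, at chr19:50743293-50743542 on the minus strand for Psmb10, chr15:33052752-33053001 on the minus strand for Psme2 and chr20:4652297-4652546 on the minus strand for Tap2.
Psmb10: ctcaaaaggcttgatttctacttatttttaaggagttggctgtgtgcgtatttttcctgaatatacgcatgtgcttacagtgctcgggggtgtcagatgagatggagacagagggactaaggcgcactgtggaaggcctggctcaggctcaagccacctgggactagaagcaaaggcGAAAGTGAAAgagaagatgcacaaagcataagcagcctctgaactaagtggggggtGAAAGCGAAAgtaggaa
Psme2: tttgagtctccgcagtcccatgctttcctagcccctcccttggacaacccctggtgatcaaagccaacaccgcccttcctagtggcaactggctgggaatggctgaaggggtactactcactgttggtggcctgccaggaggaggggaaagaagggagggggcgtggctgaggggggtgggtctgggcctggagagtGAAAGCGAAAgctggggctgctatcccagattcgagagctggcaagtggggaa
Tap2: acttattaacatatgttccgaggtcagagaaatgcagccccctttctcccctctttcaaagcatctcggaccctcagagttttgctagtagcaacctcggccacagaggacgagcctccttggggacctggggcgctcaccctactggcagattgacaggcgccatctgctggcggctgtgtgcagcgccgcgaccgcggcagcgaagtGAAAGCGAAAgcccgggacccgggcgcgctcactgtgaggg
The motif, searched on both strands, was found in 6 of the 13 promoters of the set that the table held once, and in 3.41% of 33469 promoters of the same length. The other matches were before Tap1, Tapbp and B2m, and there was none before Psmb8, Psmb9 or Psme1. Several genes of the set are known for their response to interferon. Within these 250 bases, Tap1, Tapbp and B2m held a match and overlapped between the groups. Psmb8, Psmb9, Psme1, Psmb5 and Psmb7 held none and were lower. The windows of Tap1 and Psmb9 share bases on opposite strands, and the Tap1 match lies upstream of the Psmb9 window. Whether the motif went with the differences was not tested. A match is a description of these letters and not a measured binding site.

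Psme2 had signals of 2044, 2482 and 3674 in MTXMS_A, against 4706 and 4893 in CIA_B, a log2 fold change of -0.86 ± 0.26 (SE; limma's unadjusted p = 0.0060). Psmb9 had 2529, 3437 and 3992 in MTXMS_A and 5510 and 5377 in CIA_B (-0.74 ± 0.26). Psmb10 had 1655, 1889 and 2482 in MTXMS_A and 2954 and 2999 in CIA_B (-0.59 ± 0.20). In each of these genes MTXMS_A replicate 3 was the array nearest to CIA_B. Psmb8 had 3889, 3996 and 3623 in MTXMS_A, against 4990 and 6381 in CIA_B (-0.56 ± 0.24), and Tap2 2555, 2783 and 2951 in MTXMS_A, against 3952 and 3807 in CIA_B (-0.49 ± 0.17). Psme1 differed less (-0.31 ± 0.20) and was without overlap as well. The constitutive catalytic subunits Psmb5 (-0.34 ± 0.19) and Psmb7 (-0.50 ± 0.24), which the interferon-induced forms replace, were lower without overlap too. Tap1 (-0.13 ± 0.32), the loading factor Tapbp (0.12 ± 0.31) and the light chain B2m (0.24 ± 0.32) overlapped, as did the trimming enzyme Erap1 (-0.30) and the chaperone Pdia3 (-0.10). The chaperone Calr was higher without overlap, with 2289, 2112 and 2113 in MTXMS_A and 1462 and 1988 in CIA_B (0.35 ± 0.40). Over the 44 proteasome genes measured, 30 were below 0 and 12 were lower without overlap, against 2 higher (13.2% and 8.91% of all genes), with a median of -0.11 (-0.06 without MTXMS_A replicate 2). Without MTXMS_A replicate 3, 23 were lower without overlap (over all genes, 2484 of 10112). Interferon response genes as a list were balanced, with 14 above and 15 below 0 and a median of -0.06 that turned to 0.06 without MTXMS_A replicate 1. Oasl was 0.99 ± 0.39 with overlap, and Ifi27 -0.49 ± 0.22 without.

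The other lower genes were of mixed function. Lgals1, the secreted lectin galectin-1, had 3053, 2206 and 2185 in MTXMS_A, against 5308 and 5434 in CIA_B (-1.13 ± 0.27; limma's unadjusted p = 0.0012). Ifi27l2b, of an interferon-inducible family, had 3188, 4453 and 4786 in MTXMS_A and 8117 and 8220 in CIA_B (-1.001 ± 0.26). In both genes the CIA_B arrays were nearly equal and all MTXMS_A arrays well below them. Fcer2, the low-affinity IgE receptor CD23 of B cells, had 118, 202 and 243 in MTXMS_A and 702 and 460 in CIA_B (-1.66 ± 0.44). Xiap, an inhibitor of caspases, had 411, 600 and 532 in MTXMS_A and 1142 and 1024 in CIA_B (-1.09 ± 0.31). Add3, which encodes the membrane skeleton protein adducin gamma, had 586, 762 and 911 in MTXMS_A and 1562 and 1463 in CIA_B (-1.03 ± 0.27), and -0.50 ± 0.22 on a brighter probe set. Eno3 (-1.34 ± 0.38), an enolase, Nrp1 (-1.35 ± 0.41), a semaphorin and VEGF coreceptor, and Rap1gap2 (-1.06 ± 0.40), which inactivates the GTPase Rap1, were without overlap.

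Of these lower genes, 3 are known from myeloid cells. Fcnb, the lectin ficolin B of granulocytes and monocytes, had 1374, 6179 and 433 in MTXMS_A, against 9276 and 6426 in CIA_B (-2.32 ± 0.87). The MTXMS_A arrays thus spread widely, replicate 2 came close to CIA_B, and without replicate 3 the fold change was -1.41. Ly6c, in the mouse a marker of inflammatory monocytes, had 1614, 4138 and 2047 in MTXMS_A and 4979 and 5836 in CIA_B (-1.17 ± 0.37). Lilrb4, an inhibitory receptor, had 1439, 2420 and 986 in MTXMS_A and 3205 and 2895 in CIA_B (-1.01 ± 0.34). The monocyte list as a whole had 12 of 19 genes below 0, 2 of them without overlap and none higher without overlap, and a median of -0.17 (0.05 without MTXMS_A replicate 1, -0.45 without replicate 2 and -0.49 without replicate 3). Of all genes, 13.2% were lower and 8.91% higher without overlap, so that 2 of 19 was no more than that share. Csf1r, the receptor that monocytes depend on, was -0.17 ± 0.41, and Lyz2 0.09 ± 0.26. The 14 neutrophil genes had a median of -0.30 (0.23 without MTXMS_A replicate 1, -0.86 without replicate 2, -0.13 without replicate 3 and -0.20 without CIA_B replicate 2), with Ceacam1 higher, and Fcnb and Csf3r lower, without overlap.

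Markers of B cells did not move as a group. Of 17, 8 were above and 9 below 0, with a median of -0.02. Besides Fcer2, the signalling adaptor Stap1 had 102, 192 and 162 in MTXMS_A and 290 and 265 in CIA_B (-0.91 ± 0.27), and Cd37, a tetraspanin, was -0.57 ± 0.24, both without overlap. Cxcr5, the receptor that leads lymphocytes to follicles, pointed the other way, with 761, 680 and 507 in MTXMS_A and 301 and 269 in CIA_B (1.17 ± 0.45). Ms4a1 (CD20) had 1330, 1966 and 5023 in MTXMS_A, against 3010 and 2503 in CIA_B. Its replicate 3 was the highest of the 5 arrays, and without it the median of the B cell list was -0.42. It was 0.20 without MTXMS_A replicate 1, 0.21 without MTXMS_A replicate 2, 0.24 without CIA_B replicate 1 and -0.27 without CIA_B replicate 2.

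Among the higher genes, platelet markers lay on one side as a list. All 20 measured had a fold change above 0, against 47.3% of all genes, 6 of them without overlap (8.91% of all genes), and the median was 1.06. Ppbp, the platelet basic protein, had 3936, 6016 and 3967 in MTXMS_A, against 1254 and 1941 in CIA_B (1.54 ± 0.63). P2ry12, the ADP receptor that clopidogrel blocks, had 2286, 3883 and 2163 in MTXMS_A and 940 and 1079 in CIA_B (1.41 ± 0.68). The ATP-gated channel P2rx1 had 4029, 3210 and 1236 in MTXMS_A and 684 and 1093 in CIA_B (1.54 ± 0.72). Tubb1, Mmrn1 and Vwf were without overlap as well. Pf4, the brightest member, had 63390, 64310 and 42770 in MTXMS_A and 33170 and 48750 in CIA_B (0.47 ± 0.34). The summed signal of the list was 306900, 311300 and 158100 in MTXMS_A, against 120700 and 172800 in CIA_B, so that MTXMS_A replicate 3 lay between the CIA_B arrays. Without that array the median was 1.53, 19 of the 20 genes were higher without overlap and 11 were at the study's thresholds (over all genes, 2298 and 327 of 10112). The median was 0.71 without MTXMS_A replicate 1 and likewise without CIA_B replicate 1.

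Several of the single genes that were higher stood beside this list. Slc6a4, the serotonin transporter with which platelets take up serotonin, had 4702, 4380 and 1997 in MTXMS_A and 813 and 865 in CIA_B (2.04 ± 0.73). Cald1, the actin-binding protein caldesmon, had 1285, 1287 and 580 in MTXMS_A and 334 and 354 in CIA_B (1.52 ± 0.50), and 1.74 ± 0.62 on a second probe set. Both Slc6a4 and Cald1 were lowest on replicate 3 among the MTXMS_A arrays, as the summed platelet signal was. Tesc, a calcium-binding protein, had 2970, 2576 and 3409 in MTXMS_A and 846 and 999 in CIA_B (1.69 ± 0.60). Serpinb6a, an intracellular protease inhibitor, had 1828, 1120 and 2567 in MTXMS_A and 392.2 and 462 in CIA_B (2.03 ± 0.68). Gypc, a glycophorin of the red cell membrane, had 2513, 2135 and 2672 in MTXMS_A and 914 and 892 in CIA_B (1.43 ± 0.48), and it was not low on replicate 3, as most red cell markers were. The part of platelet content in these differences was not tested.

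The direction of the red cell markers turned with the arrays used. Alas2, the first enzyme of haem synthesis in erythroid cells, had 20570, 22750 and 49.8 in MTXMS_A and 6225 and 21300 in CIA_B. Hbb, a beta globin chain, had 36040, 43630 and 2186 in MTXMS_A and 38820 and 35590 in CIA_B. On MTXMS_A replicate 3 both were far below every other array of the 2 groups. Over the 24 erythroid genes the median was -0.54, with 15 below 0. Without this array it was 1.19, with 23 above 0 and 18 higher without overlap (over all genes, 2298 were then higher and 2484 lower without overlap). Without CIA_B replicate 2 it was 0.30. The summed signal was 217600, 270400 and 12520 in MTXMS_A and 109000 and 191600 in CIA_B.

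**Figure D3:**
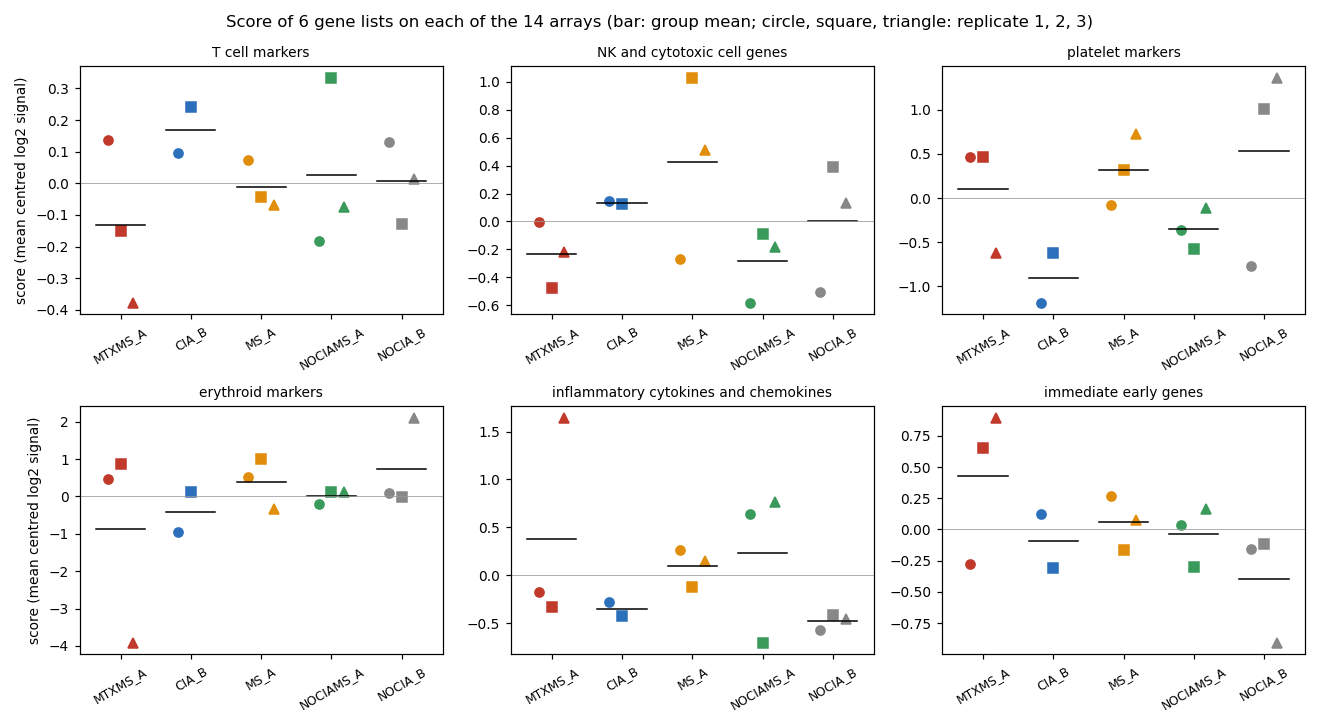
Score of 6 gene lists, the mean log2 signal of their genes after each is centred over the 14 arrays (vertical axis), on each array of the 5 groups; circle, square and triangle are replicates 1, 2 and 3 and the line is the group mean. MTXMS_A replicate 3 has the lowest erythroid score, -3.91, and the highest score of inflammatory cytokines and chemokines, 1.65.

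Jun, a subunit of the transcription factor AP-1 that cells induce within minutes of many stimuli, led the immediate early genes. All 3 of its probe sets were higher without overlap. On the one with the lowest p it had 1261, 3071 and 1159 in MTXMS_A and 541 and 709 in CIA_B (1.41 ± 0.39; limma's unadjusted p = 0.0038), and on the brightest 1340, 5950 and 3186 in MTXMS_A and 784 and 885 in CIA_B (1.82 ± 0.51). Atf3, a stress-induced factor of the same protein family, had 159, 839 and 330 in MTXMS_A, against 147 and 74.9 in CIA_B (1.75 ± 0.63). Its replicate 1 was barely above the higher CIA_B array. Fos itself overlapped, with 2798, 18920 and 6191 in MTXMS_A and 5022 and 3470 in CIA_B (0.72 ± 0.63), and Egr1 did too (0.46 ± 0.85). Of 24 immediate early genes, 17 were above 0, 3 were higher without overlap and none was lower without overlap, with a median of 0.41 (0.76 without MTXMS_A replicate 1, 0.20 without replicate 2 and 0.30 without replicate 3). Over all genes, 8.91% were higher and 13.2% lower without overlap, so that 3 higher of 24 was near that share.

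Inflammatory cytokines and chemokines had a median of 0.77, with 15 of 20 above 0, and that value rested on MTXMS_A replicate 3: without it the median was 0.02 and 11 were above 0. Cxcl2, a chemokine for neutrophils, had 636, 311 and 20090 in MTXMS_A and 593 and 544 in CIA_B. Ccl2, which attracts monocytes, had 249, 365 and 2732 in MTXMS_A and 81.7 and 68.1 in CIA_B (3.07 ± 1.33), and was higher on the other MTXMS_A arrays too. Ccl3, a chemokine of monocytes and T cells, had 2487, 3973 and 3470 in MTXMS_A, against 1750 and 1901 in CIA_B (0.83 ± 0.33). Here replicate 3 was not the highest. Cxcl3 was dim in CIA_B, with 63.9 and 24.4, against 269, 98.2 and 454 in MTXMS_A (2.54 ± 0.97). Ltb, the lymphotoxin beta of lymphocytes, was lower without overlap, with 2967, 2901 and 4156 in MTXMS_A and 4286 and 4508 in CIA_B (-0.42 ± 0.21). Genes of Toll-like receptor and NF-kB signalling were above 0 in 19 of 22 cases, with a median of 0.30 (0.04 without replicate 3, 0.46 without replicate 2 and 0.17 without CIA_B replicate 2). Of these, 1 was higher without overlap (8.91% of all genes), the NF-kB regulator Nfkbid (0.78 ± 0.31). The metal-binding protein Mt2A had 1989, 3325 and 15120 in MTXMS_A and 1777 and 699 in CIA_B (2.06 ± 0.73). The same array had the high 3′ to 5′ ratio and the low red cell markers given above, whose part in these values was not tested.

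The remaining higher genes had no common list. Gaa, the lysosomal enzyme that breaks down glycogen, had 730, 519 and 472 in MTXMS_A and 249 and 253 in CIA_B (1.17 ± 0.31; limma's unadjusted p = 0.0031). Ceacam1, an adhesion molecule of leukocytes and epithelia, had 975, 1624 and 2575 in MTXMS_A and 680 and 654 in CIA_B (1.26 ± 0.38), and 1.71 ± 0.56 on a second probe set. Slc25a13, the mitochondrial aspartate and glutamate carrier, had 982, 663 and 586 in MTXMS_A and 439 and 245 in CIA_B (1.15 ± 0.34), while its dimmer probe set overlapped (0.30 ± 0.40). Lgals2, a galectin, had 1303, 483 and 710 in MTXMS_A and 78.8 and 225 in CIA_B (2.52 ± 0.82). Cela1, a protease of the elastase family, had 1585, 943 and 570 in MTXMS_A and 91.7 and 343 in CIA_B (2.42 ± 0.74). In these 2 genes the CIA_B arrays differed from each other by over a log2 unit. Smim3 (1.13 ± 0.35), Ccdc92 (1.54 ± 0.51), the beta tubulin Tubb2b (1.33 ± 0.47) and Cntnap2, of the neurexin family (2.30 ± 0.81), completed the 15. Within NOCIA_B, Slc25a13, Lgals2, Cela1, Smim3, Ccdc92, Tubb2b and Cntnap2 were lowest on replicate 1, while Gaa and Ceacam1 were not. The score of the platelet markers was lowest there too, at -0.766, against 1.005 and 1.362 on NOCIA_B replicates 2 and 3. The part of platelet content in these genes was not tested either.

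Genes of the drug's own pathways differed little. Of 31 genes of folate and nucleotide synthesis, 18 were above and 13 below 0, none was at the study's thresholds and the median was 0.07. Atic, the purine synthesis enzyme that methotrexate polyglutamates inhibit, had 2346, 2391 and 2296 in MTXMS_A and 2025 and 2370 in CIA_B (0.10 ± 0.26). Gart, of the same pathway, was 0.09 ± 0.42. Slc19a1, the reduced folate carrier that brings methotrexate into cells, had 167, 224 and 202 in MTXMS_A and 122 and 225 in CIA_B (0.25 ± 0.37). Fpgs, which adds glutamates to the drug and keeps it in the cell, had 149, 161 and 1111 in MTXMS_A and 79.0 and 85.6 in CIA_B (1.86 ± 0.88), higher without overlap but mostly by replicate 3. Ggh, which removes these glutamates, was -0.37 ± 0.40. Shmt1 had 1515, 1082 and 1640 in MTXMS_A, against 1009 and 985 in CIA_B (0.48 ± 0.34), and was without overlap, while Mthfd2 (0.39 ± 0.37) overlapped and Mthfd1 was lower without overlap by a small amount (-0.17 ± 0.19). Tyms and Adora3 were not analysed here.

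Of 23 genes of adenosine and purinergic signalling, 17 were above 0, 3 were higher and 1 was lower without overlap (8.91% and 13.2% of all genes), and the median was 0.27 (0.18 without MTXMS_A replicate 3). The higher ones were P2rx1 and P2ry12, given above with the platelet markers, and Nt5e, the ectoenzyme CD73 that makes adenosine from AMP, with 433, 353 and 1388 in MTXMS_A and 293 and 341 in CIA_B (0.91 ± 0.57). Dpp4 (CD26), which binds adenosine deaminase on T cells, was the lower one, with 306, 433 and 345 in MTXMS_A and 582 and 552 in CIA_B (-0.66 ± 0.30). Ada, the deaminase itself, had 434, 387 and 783 in MTXMS_A and 684 and 581 in CIA_B (-0.31 ± 0.34), and the receptor Adora2a had 403, 466 and 1273 in MTXMS_A and 761 and 452 in CIA_B (0.08 ± 0.45, and -0.44 without replicate 3). On these probe sets replicate 3 was the highest MTXMS_A array and the groups overlapped. A dimmer probe set of Adora2a was lower without overlap, with 49.2, 67.0 and 66.6 in MTXMS_A and 110 and 82.6 in CIA_B (-0.66 ± 0.69). S100a8 and S100a9, the calprotectin chains of neutrophils and monocytes, overlapped as well, with S100a9 at 14160, 38230 and 19120 in MTXMS_A and 23570 and 24050 in CIA_B. Cxcr3 (0.11 ± 0.32) and Il2rb (-0.20 ± 0.44), receptors of activated T and NK cells, overlapped. Among 18 genes of the p53 response the median was 0.01 (-0.11 without CIA_B replicate 1 and 0.13 without CIA_B replicate 2), and Bbc3, the pro-apoptotic protein PUMA, was higher without overlap, with 2160, 1985 and 1610 in MTXMS_A and 706 and 1067 in CIA_B (1.13 ± 0.41), while Cdkn1a overlapped (0.39 ± 0.28).

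**Figure D4:**
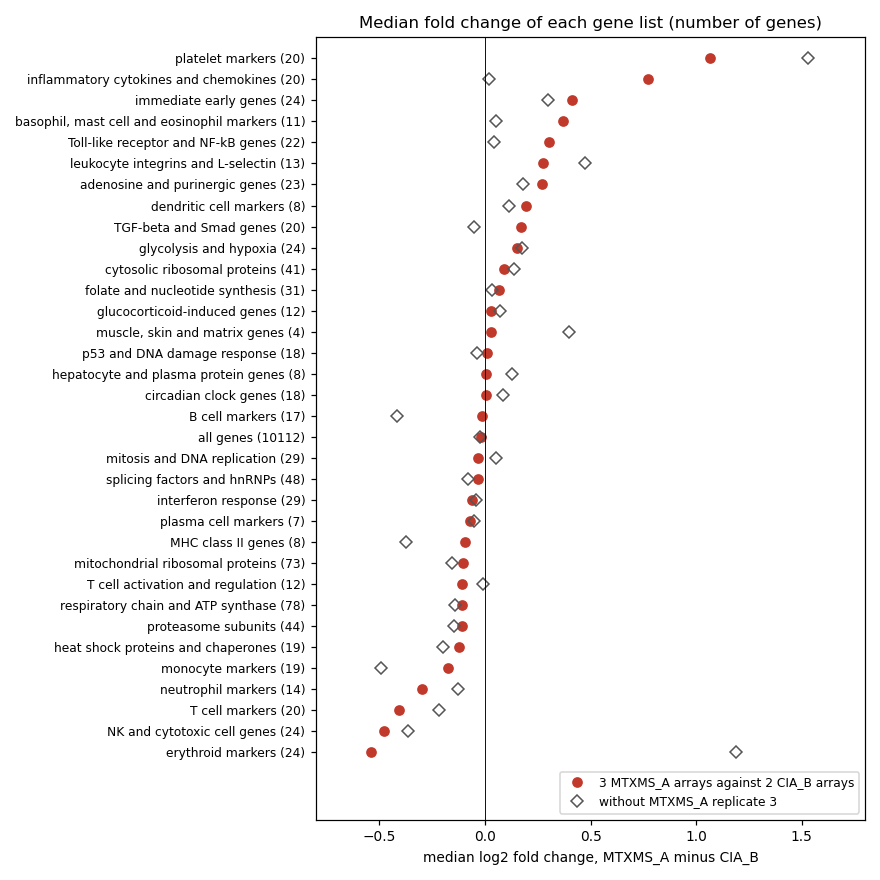
Median log2 fold change of MTXMS_A minus CIA_B (horizontal axis) of 33 gene lists and all genes, with all 5 arrays (filled circles) and without MTXMS_A replicate 3 (open diamonds); the number of genes measured is in brackets. Platelet markers are highest, at 1.06, and erythroid markers lowest, at -0.54; without that array the erythroid median is 1.19.

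Lists of abundant housekeeping genes had small shifts. Among the brightest 3703 probe sets of all, 664 were lower and 253 higher without overlap, with a median of -0.05. Over all genes, 13.2% were lower and 8.91% higher without overlap. Of 78 respiratory chain and ATP synthase genes, 54 were below 0 and 20 were lower without overlap, against 1 higher, with a median of -0.11 (-0.05 without MTXMS_A replicate 2). Atp5f1c, a subunit of ATP synthase, had 3001, 3502 and 3693 in MTXMS_A and 4509 and 4582 in CIA_B (-0.42 ± 0.17). Of 73 mitochondrial ribosomal proteins, 56 were below 0 and 14 were lower without overlap, against 1 higher (median -0.10, and -0.05 without MTXMS_A replicate 2), with Mrps33 at -0.55 ± 0.23. The splicing factors had 11 of 48 lower and 3 higher without overlap (median -0.03). Cytosolic ribosomal proteins were above 0 in 35 of 41 cases, with a median of 0.09, which turned to -0.07 under quantile normalization and was 0.02 without CIA_B replicate 1. Without MTXMS_A replicate 3, 33 respiratory chain, 25 mitochondrial ribosomal and 20 splicing genes were lower, and 24 cytosolic ribosomal genes higher, without overlap. Over all 10112 genes, 2484 were then lower and 2298 higher without overlap, since fewer arrays overlap less. Glycolysis genes had a median of 0.15 (0.03 without CIA_B replicate 2 and 0.07 without MTXMS_A replicate 2) and were divided: Ldhb had 816, 448 and 468 in MTXMS_A and 891 and 1084 in CIA_B (-0.82 ± 0.30), and Hk1 396, 474 and 445 in MTXMS_A, against 246 and 306 in CIA_B (0.67 ± 0.29). Medians of mitosis and DNA replication genes (-0.03) and MHC class II genes (-0.10) changed sign with single arrays left out, to 0.05 without MTXMS_A replicate 3 and 0.23 without CIA_B replicate 1.

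The gene sets that the study drew up on wound healing and inflammation were counted likewise. Of 206 genes of the wound healing term, 11 were higher and 1 was lower at the study's thresholds, against 1.65% and 0.396% of all genes. Without overlap, 36 were higher and 22 lower, against 8.91% and 13.2% of all genes (median 0.15). The response to wounding had 22 higher and 3 lower of 394 (median 0.12), and inflammation 17 higher and none lower of 286 (median 0.07). Epithelial-mesenchymal transition had 6 higher of 172 (median 0.10), its type 2 had 3 higher of 50 (median 0.16), early mechanotransduction none of 25 (median 0.15) and early healing none of 55 (median 0.00). With only probe sets of a mean signal above the 60th percentile, most of these medians were smaller. They were 0.062 for wound healing, 0.021 for the response to wounding, -0.003 for inflammation and 0.035 for epithelial-mesenchymal transition. Its type 2 was then at 0.113, early mechanotransduction at 0.141 and early healing at -0.083, against -0.045 over all genes. Without MTXMS_A replicate 3, the counts of higher genes were 18 for wound healing, 30 for the response to wounding, 17 for inflammation, 12 for epithelial-mesenchymal transition, 6 for its type 2, 1 for early mechanotransduction and 4 for early healing, while over all genes they were 327, against 167 with all arrays. The score of the wound healing term was -0.03, 0.09 and -0.09 in MTXMS_A and -0.25 and -0.19 in CIA_B, and that of the platelet markers 0.46, 0.46 and -0.63 in MTXMS_A and -1.19 and -0.62 in CIA_B. Both were higher on MTXMS_A replicates 1 and 2 than in CIA_B, and the part of platelet markers in the wound healing counts was not tested.

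MTXMS_A was next set against MS_A, sampled at the same day without methotrexate, while both comparisons share the MTXMS_A arrays. The methods name no placebo injection for the MS_A rats, so that the drug and its weekly injection cannot be told apart. The actin 3′ to 5′ ratio was 3.15, 3.13 and 5.01 in MTXMS_A and 2.62, 2.44 and 2.69 in MS_A. The part of RNA quality in these differences was not tested. Again no probe set passed at an adjusted p of 0.05. There were 2746 at an unadjusted p under 0.05, of which 398 were over 2-fold higher (2.15%) and 435 over 2-fold lower (2.35%). Without MS_A replicate 1 there were 693 higher, and without MTXMS_A replicate 2 there were 698 lower. Crebzf, a repressor of the bZIP family, shared the smallest adjusted p with a probe set of Mycbp2, named after its values were seen, that was below the median on all MS_A arrays. Crebzf had 442, 510 and 442 in MTXMS_A and 1063, 1263 and 1042 in MS_A (-1.27 ± 0.17; limma's adjusted p = 0.0604). Its CIA_B signals of 820 and 851 lay between. The brightest Crebzf probe set overlapped, with 1833, 1553 and 1959 in MTXMS_A and 1841, 1415 and 1229 in MS_A. Its other probe sets were lower than in MS_A without overlap. Ifi27l2b, lower against CIA_B too, had 9896, 9696 and 9735 in MS_A, a difference of -1.26 ± 0.23 for MTXMS_A. Parp4 (-1.39 ± 0.25), of the poly(ADP-ribose) polymerase family, Herc3 (-1.39 ± 0.24), a ubiquitin ligase, and Scd2 (-1.24 ± 0.24), a fatty acid desaturase, were lower without overlap.

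Zeb1, a transcription factor of T cells and of epithelial-mesenchymal transition, was among the higher genes, with 6468, 4228 and 3870 in MTXMS_A and 1865, 1620 and 1051 in MS_A (1.69 ± 0.40). Its CIA_B signals were 2899 and 2766. Fip1l1 (1.42 ± 0.32), a factor of mRNA polyadenylation, the nuclear export receptor Xpo4 (1.27 ± 0.29), Fnbp1 (1.52 ± 0.32), which bends membranes, and Jun (1.81 ± 0.45) were higher too. Against CIA_B, the probe sets of Xpo4, Fnbp1 and Scd2 disagreed among themselves in direction. The lists gave medians of -0.48 for NK and cytotoxic cell genes, -0.18 for T cell markers, -0.75 for monocyte markers and 0.31 for immediate early genes in MTXMS_A minus MS_A, against -0.04 for all genes. The scores of each of these lists overlapped between the groups. NK and cytotoxic scores were -0.005, -0.48 and -0.218 in MTXMS_A and -0.266, 1.031 and 0.51 in MS_A. Erythroid markers had a median of -1.27, with overlapping scores. TGF-beta and Smad genes (0.585) and circadian clock genes (0.539) had higher scores in MTXMS_A without overlap. Platelet markers were at -0.25 in this comparison and at 1.47 in MS_A minus CIA_B, which shares the CIA_B arrays. There T cell markers were at -0.37, near their -0.41 in MTXMS_A minus CIA_B, and NK and cytotoxic cell genes at 0.20. Of the named genes, 14 of the 15 higher and 9 of the 15 lower lay on the same side of CIA_B in MS_A. The shared CIA_B arrays favour such counts. Psmb9 was lower than in MS_A, at 4937, 6648 and 6933 there (-0.91 ± 0.23), and so was Psme2, at 4250, 4652 and 5304 (-0.83 ± 0.23).

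The change was last compared with that of healthy rats under stimulation over the same time, NOCIAMS_A minus NOCIA_B, which shares no array with it. The difference of both changes passed for no probe set at an adjusted p of 0.05 (smallest 0.38); 1459 had an unadjusted p under 0.05, of which 593 were over 2-fold higher (3.2%) and 343 over 2-fold lower (1.85%), with a median over all probe sets of -0.13. These counts were 1156 and 700 without NOCIA_B replicate 1, 1082 and 636 without MTXMS_A replicate 3, and 344 higher without NOCIA_B replicate 3. Of the 15 named higher genes, 13 had a healthy change below 0, against 47.4% of all probe sets with a fold change above 0 in MTXMS_A. Over the 327 probe sets higher at the study's thresholds it was 183 (56%). Of the 15 lower genes, 10 had one above 0, close to the 66.1% of all probe sets with a fold change below 0. Slc6a4 had 1318, 1174 and 1556 in NOCIAMS_A and 1073, 6599 and 6850 in NOCIA_B. The NOCIA_B arrays thus differed widely among themselves, and platelet markers as a list had a median healthy change of -0.92. Jun (0.62) and Ceacam1 (0.74) were the higher genes whose healthy change was above 0.

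**Figure D5:**
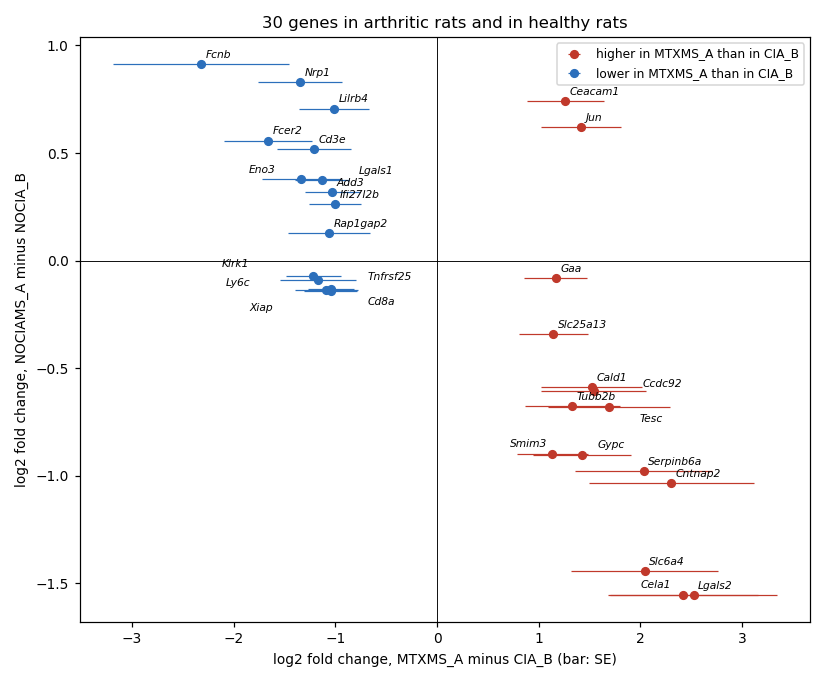
Log2 fold change of NOCIAMS_A minus NOCIA_B (vertical axis) against that of MTXMS_A minus CIA_B (horizontal axis, bars are SE) for the 30 named genes. Of the 15 genes higher in MTXMS_A (red), 13 lie below 0 on the vertical axis, and 10 of the 15 lower ones (blue) lie above it.

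The immunoproteasome genes and Lgals1 were among those whose changes differed in sign. Lgals1 had 4671, 3976 and 3866 in NOCIAMS_A and 2693, 3127 and 3921 in NOCIA_B, so that the difference of the changes was -1.51 ± 0.36. Bri3, with 948, 1106 and 1232 in MTXMS_A and 1348 and 1263 in CIA_B, had 1922, 1610 and 1420 in NOCIAMS_A and 807, 788 and 818 in NOCIA_B (-1.29 ± 0.27). Its healthy change was the larger part. Hcst, the adaptor DAP10 through which Klrk1 signals, had 5488, 4668 and 5508 in MTXMS_A and 7521 and 9161 in CIA_B, and a difference of changes of -1.11 ± 0.27. Ly6e (-1.66 ± 0.40) and RGD1309362 (-1.37 ± 0.31) were lower in the same way. Gsk3b, a kinase of Wnt and insulin signalling, was the opposite, with 1254, 1561 and 1223 in MTXMS_A and 850 and 935 in CIA_B, against 608, 682 and 730 in NOCIAMS_A and 1025, 2118 and 2597 in NOCIA_B (1.99 ± 0.48). On a second probe set Ly6e overlapped between MTXMS_A and CIA_B (-0.20 ± 0.37). Tnik, Pals1, Snn and Smim3 had differences of 1.8, 1.52, 1.29 and 2.03. Of 4 Tnik probe sets, 2 were higher than in CIA_B without overlap and 2 overlapped, the brightest at -0.10 ± 0.37. All 10 of these genes were chosen for this difference, so that their values are a description.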

How the data were processed

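RNA of PBMC was hybridised to 14 Affymetrix rat arrays, 1 per rat. The deposited values are MAS5 signal intensities, which the authors computed with affy (version not stated) and scaled to a trimmed mean of 500 with 2% cut at each end. The label codes were matched to the study's group names by their wording (MTXAP as MTXMS_A, RA as CIA_B, AP as MS_A, HAP as NOCIAMS_A, NORA as NOCIA_B).

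Of 31099 probe sets, 57 controls were left out, and the 18515 above the array median on at least 2 arrays were kept. The log2 signal of all 14 arrays entered 1 linear model (limma 3.58.1 under R 4.3.3), which was tested on simulated data, with Benjamini-Hochberg adjustment over all kept probe sets and a threshold of 0.05. The study's thresholds were an unadjusted p under 0.05 and a fold over 2. The study also removed probe sets by detection calls, which were not used here, so that counts at its thresholds do not follow its full rule. GEO's platform annotation gave 1 symbol to 20837 probe sets, several to 425 and none to 9780, and unnamed probe sets were tested but not described. A gene in a list was represented by its brightest probe set, 10112 genes in all. The named genes were the 15 per direction with the lowest p among those over 2-fold, without overlap and averaging past percentile 60 in the group where they were brighter, 5 per direction in the other comparisons, up to 4 members of each list, and the drug's targets and genes that the study discusses. A few further list members were added in the text after their values were seen. The members, the 33 gene lists and the 7 study sets were chosen with earlier results of these data known. Promoters came from RefSeq (GRCr8). The labels name no litter or culture, and the number of arrays limits the precision. The alternatives were other normalization or centring, filters, fewer groups in the fit, a pseudocount, array weights, no moderation, a replicate block and leaving out each array.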

Additional observations from a re-analysis of the deposited data

Results flagged for a closer look

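For 17 genes, on the probe set that names them, every MTXMS_A array lay on one side of both CIA_B arrays while every NOCIAMS_A array lay on the opposite side of all NOCIA_B arrays. This holds for 322 of all probe sets tested (1.74%). The difference of the changes was tested in limma and passed for none of them (adjusted p = 0.632). The log2 fold change is given for MTXMS_A minus CIA_B, then for NOCIAMS_A minus NOCIA_B.

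Of the genes named for the first comparison, Smim3 was at 1.13 and -0.90. Fcer2, the IgE receptor of B cells, was at -1.66 and 0.56. Nrp1 was at -1.35 and 0.83, and Lilrb4, an inhibitory receptor, at -1.01 and 0.71. The next genes were picked for this very difference. The kinase Tnik was at 0.61 and -1.20, Pals1, a polarity protein, at 0.78 and -0.74, the kinase Gsk3b at 0.59 and -1.41, and Snn at 0.69 and -0.59. Bri3 was at -0.26 and 1.03, RGD1309362 at -0.93 and 0.44, the adaptor Hcst at -0.67 and 0.44, and Ly6e at -0.92 and 0.74.

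In antigen processing, Psmb9 was at -0.74 and 0.37, Psmb10 at -0.59 and 0.34, Psme1 at -0.31 and 0.41, Psmb5 at -0.34 and 0.34, and Tap2 at -0.49 and 0.34. For Tnik and Ly6e, other probe sets overlapped between MTXMS_A and CIA_B. The antigen processing genes were grouped after their values had been seen. The difference of the changes was -1.11 ± 0.35 (SE) for Psmb9 and -0.83 ± 0.23 for Tap2.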

How the results depend on the processing

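For MTXMS_A against CIA_B, counts at the study's thresholds were 950 higher and 278 lower with no filter on low signals, 88 and 44 with a mean signal above the 60th percentile, 203 and 59 with a pseudocount of 32, and 570 and 194 with array weights. Groups did not overlap for 3546 higher probe sets with no filter and 926 with the stricter one. The study's thresholds as the call rule gave 423 calls here, 833 against MS_A and 936 for the difference from the healthy change. Against MS_A, calls were 1 with the stricter filter, 2 with array weights and 5 without moderation; 798 were higher with no filter, 240 higher and 244 lower with the stricter one, and 283 lower with the pseudocount. For the healthy difference, 1101 higher and 557 lower came with no filter, 370 higher with the stricter one, and 1 call, 1185 higher and 643 lower with array weights. Adora2a was -0.165 with array weights. The cause of these shifts was not tested, beyond the number of probe sets that each filter leaves.

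Leaving out 1 array gave 0 to 13 calls for MTXMS_A against CIA_B (13 without CIA_B replicate 1), 237 to 617 higher and 71 to 241 lower (both highest without MTXMS_A replicate 3), and groups without overlap for 2558 to 4333 higher and 3379 to 4397 lower, since fewer arrays overlap less. Against MS_A it gave 0 to 1 calls, 275 to 693 higher and 335 to 698 lower, and for the healthy difference 0 to 3 calls, 344 to 1156 higher and 256 to 700 lower. Fold changes that reversed were those of Atic (-0.016 to 0.211), Gart (-0.065 to 0.299), Slc19a1 (-0.194 to 0.691), Adora2a (-0.437 to 0.457), S100a8 (-1.044 to 0.266), S100a9 (-0.533 to 0.184), Cxcr3 (-0.168 to 0.379) and Il2rb (-0.331 to 0.004). The 30 named genes kept their sign under every alternative run. They had been chosen without overlap, so leaving out or weighting arrays could not reverse them, and this is no support for them. With the replicate number as a block there were 0 calls and 152 lower; same-numbered arrays correlated in their deviations by 0.028 on average and differently numbered ones by -0.015, and the numbers mark no shared animal.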
